A study of Mus musculus with 50 samples.

Results

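Tumors from mice given insulin were compared with tumors from mice given vehicle, over all genes above a level filter. The comparison took every tumor whose sample title names insulin, 10 in all, and every tumor titled Untreated, also 10, which stand for the vehicle group of the study. These were 20 of the 50 mammary gland tumors sequenced. The other 30, from mice given glargine, X10 (both modified insulins) or IGF1, were used to estimate the spread and for the last comparison below. Every tumor came from a different female p53R270H/+WAPCre mouse. In this strain the milk protein promoter WAP drives the Cre recombinase, which switches on 1 copy of the p53 mutation R270H in mammary epithelium, so vehicle and insulin tumors carry the same allele. Injections were subcutaneous and were given on alternate days from 8 weeks of age until a tumor of 1 cm3 had formed, and the tumor was taken 24 h after the last injection. From each treatment the authors had picked EMT-like tumors, those with a mesenchymal appearance, whose latency lay near the median of the group, so the comparison is between tumors of a chosen kind and size and not between all tumors of these mice. Not all of them were mesenchymal by expression. The paper describes a small cluster of the sequenced tumors with high epithelial and low mesenchymal gene levels, some of them from vehicle mice.

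Insulin binds the insulin receptor (Insr) and, with lower affinity, the IGF1 receptor (Igf1r). Both receptors are tyrosine kinases that pass the signal through adaptor proteins to PI3K, AKT and mTOR, which promote the uptake of glucose and the synthesis of protein and lipid, and to RAS and ERK, which promote division. AKT also keeps the FOXO transcription factors out of the nucleus, so that genes induced by FOXO are low when the pathway is on. Much of this signalling acts through protein phosphorylation, which RNA levels do not report.

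Levels are given as RPKM, reads per kilobase of gene and per 1 M reads. Library size, recovered from the steps between the RPKM values, was 34.1 to 51.9 M reads in the insulin tumors and 37.4 to 51.3 M reads in the vehicle tumors. The mean difference was -4.47 M reads (two-sided permutation test, 100000 resamples, p = 0.0560). The highest Pearson correlation between 2 of the 20 tumors over the tested genes was 0.973 (insulin_26 with insulin_27), so that no library was held in 2 copies. Single tumors are named by their titles, with Untreated for vehicle. The tumor insulin_13 carried the transcripts of salivary gland at very high levels, and the larger lists and leading genes that move with it are also given without it. In the labels the libraries are numbered by group, insulin from 1 to 10 and vehicle from 41 to 50. If these numbers stand for an order of preparation, order and treatment cannot be told apart.

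No single gene separated the 2 groups after correction for the number of genes tested. Of 16733 genes, 0 (0%) had an adjusted p under 0.05 (limma on log2(RPKM + 0.5), Benjamini-Hochberg), and 1865 (11.1%) had an unadjusted p under 0.05. Of the latter, 1000 (5.98% of the genes tested) were higher and 865 (5.17%) were lower with insulin. Below, a gene is said to be nominally higher or lower when its unadjusted limma p was under 0.05, and the shares of 5.98% and 5.17% are the background against which the members of each gene list are to be read. Without insulin_13, 2130 genes had an unadjusted p under 0.05, of which 1368 were higher. Many counts of 5 or fewer members in a list moved with single tumors left out, and such counts are given as counts only.

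The genes with the smallest p were 2 copies of the histone H2A gene in the replication-dependent cluster on chromosome 13, and both were lower with insulin. Histone H2A is part of the nucleosome, and the genes of this cluster are transcribed mainly during S phase. Hist1h2ap (ENSMUSG00000094777, chromosome 13 from 21833026 to 21833507, minus strand, GRCm38) had a lowest, median and highest RPKM of 4.07, 6.97 and 8.96 in insulin tumors and of 7.59, 17.0 and 29.5 in vehicle tumors. The groups barely overlapped: 9 of 10 vehicle tumors were above every insulin tumor, and the remaining one was Untreated_161. The log2 fold change was -1.24 (standard error 0.24, limma adjusted p = 0.0802). Hist1h2ao (chromosome 13 from 21810465 to 21810944, plus strand) had values of 6.17, 9.76 and 13.2 with insulin and 12.6, 23.0 and 38.0 with vehicle, and 8 of 10 vehicle tumors were above every insulin tumor. Its log2 fold change was -1.15 (standard error 0.23, adjusted p = 0.0802). The 2 genes are near-identical: their annotated transcripts of 480 and 482 bases have an identical stretch of 452 bases. How reads that match both were counted was not tested, so they are best read as one observation, and which copy differed is uncertain. Without Untreated_161, Untreated_187 or Untreated_194, each left out in turn, both had an adjusted p under 0.05, and without insulin_13 both had one of 0.0679. Over all alternatives it ranged from 0.0155 to 0.263 for Hist1h2ap and from 0.0300 to 0.263 for Hist1h2ao. Among 30 histone genes of the replication-dependent clusters above the level filter (of 70 in the table), 12 were nominally lower and 0 higher (median log2 fold change -0.35). Of the 12, 11 code for H2A, and the 12th is the H4 gene Hist1h4i. Whether the other H2A copies share reads with each other was not tested. Counts on this list, here and below, may therefore not be of separate members. Besides Hist1h2ap and Hist1h2ao, each of these H2A copies had a mean RPKM below 2 in both groups, as had Hist1h2af (mean 0.970 ± 0.474 with insulin and 1.96 ± 1.08 with vehicle, SD, n = 10) and Hist1h2ak (0.409 ± 0.240 and 0.930 ± 0.639). The count was 7 without Untreated_162 and 11 without insulin_13. As a rule replication-dependent histone transcripts have no poly-A tail, and these libraries were Poly-A selected, so the values describe the fraction of these transcripts that passed that selection.

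Med21 and Anapc11, genes of general cell machinery, came next among the lower genes in the order of p or of overlap. Med21 (chromosome 6 from 146642547 to 146650732), a subunit of the Mediator complex that links transcription factors to RNA polymerase, ranged from 24.4 to 35.6 with a median of 27.7 in insulin tumors and from 30.6 to 72.7 with a median of 42.5 in vehicle tumors. Of the vehicle tumors, 7 lay above every insulin tumor. The log2 fold change was -0.58 (standard error 0.12, adjusted p = 0.127). It was -0.64, with an adjusted p of 0.0313, without Untreated_194, and over all alternatives the adjusted p ranged from 0.0313 to 0.301. Anapc11, the RING subunit of the anaphase-promoting complex, was the single gene of 16733 (0.00598%) whose values did not overlap between the groups. It ranged from 17.6 to 28.0 with a median of 25.4 with insulin and from 28.6 to 43.9 with a median of 35.0 with vehicle. The gap between Untreated_187 at 28.6 and insulin_26 at 28.0 was small beside the SD of 3.77 and 5.66, and the log2 fold change of -0.55 (standard error 0.15) had an adjusted p of 0.231.

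The other 9 of the 12 genes with the smallest p among the lower ones had log2 fold changes between -2.09 and -0.57, each with an adjusted p between 0.196 and 0.198. Ephb3, a receptor for ephrins, had a median of 3.77 with insulin and 6.47 with vehicle, and Epha1, a receptor of the same family, one of 0.490 and 3.00. Arhgap8, a GTPase-activating protein, had a median of 0.372 and 2.05. In Untreated_174 Arhgap8 reached 37.2 and Ephb3 27.8, the highest of the 20 tumors. Zfp503, a zinc finger repressor, had a log2 fold change of -1.15. It was -0.61 for Fhl2, a LIM domain protein of the actin skeleton, -0.68 for Chchd4, which folds proteins imported into the mitochondrial intermembrane space, -0.57 for Pigx, an enzyme subunit of GPI anchor synthesis, and -1.34 for Apol7a. The inhibitor of differentiation Id3, also one of the 12, is described with its family below.

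The 12 genes with the smallest p among the higher ones had roles of several kinds. Nacc2, a BTB domain corepressor, ranged from 53.2 to 104.7 with a median of 65.5 in insulin tumors and from 27.9 to 60.2 with a median of 40.1 in vehicle tumors. Insulin tumors were above every vehicle tumor in 6 of 10 cases, and the log2 fold change was 0.76 (standard error 0.17, adjusted p = 0.196). Peli2, an E3 ligase of Toll-like receptor signalling, was above every vehicle tumor in 9 of 10 insulin tumors, and insulin_13 was the exception at 1.63. Its median was 3.94 against 2.06, and its log2 fold change of 0.77 (adjusted p = 0.196) was 0.88 (adjusted p = 0.0679) without insulin_13. Ssh2, a phosphatase that activates the actin-severing protein cofilin, had a median of 29.0 against 18.4, and Tln1, which couples integrins to actin, one of 875 against 622. Dab2, an adaptor of clathrin-mediated endocytosis, had a median of 201 with insulin and 115.4 with vehicle. For this gene 9 of 10 vehicle tumors were below every insulin tumor (log2 fold change 0.87, standard error 0.22, adjusted p = 0.196). Stab1, a scavenger receptor of macrophages and sinusoidal endothelium, had a lowest, median and highest value of 102, 268 and 679 with insulin and of 39.9, 156 and 219 with vehicle. Its log2 fold change was 1.07 (standard error 0.28, adjusted p = 0.198) and, without insulin_13, 1.23 (adjusted p = 0.0679). The remaining 6 were F13a1, Nxpe5, Pkd1, Atp13a2, Slco5a1 and Tal1, with log2 fold changes between 0.65 and 1.76. Over all alternatives the adjusted p of the 12 lay between 0.0679 and 0.421.

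**Figure D1:**
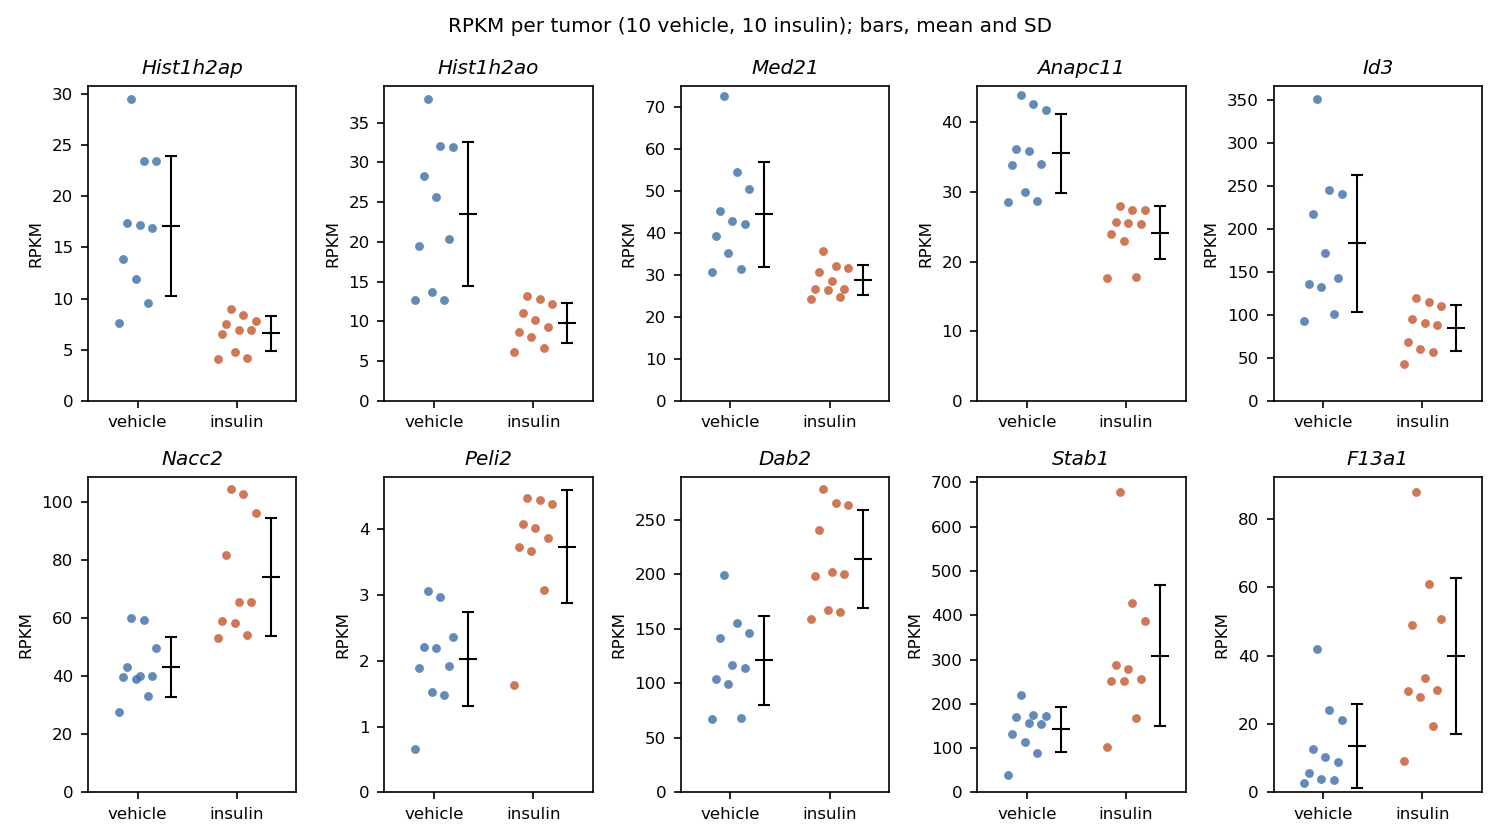
RPKM of 10 genes (vertical axes, linear and starting at 0) in the 10 vehicle tumors (blue) and the 10 insulin tumors (orange); each point is a tumor and the bars give mean and SD. In the upper row the vehicle tumors sit higher, without overlap for Anapc11; in the lower row the insulin tumors sit higher, with 1 insulin tumor (insulin_13) among the vehicle values for Peli2.

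The genes of the receptors and their ligands differed little. Of the 5 above the level filter, Igf2r was nominally lower and the other 4 were not nominally different. Igf2r codes for the mannose 6-phosphate receptor, which clears IGF2 and does not signal as the kinases do. It had a lowest, median and highest value of 161.1, 217 and 282 in insulin tumors and of 137, 287 and 505 in vehicle tumors, so that 5 vehicle tumors were above every insulin tumor and 1 was below. The log2 fold change was -0.46 (standard error 0.21, limma p = 0.0346, adjusted p = 0.410). Insr, the insulin receptor, had a median of 9.99 (7.24 to 12.3) with insulin and 7.88 (4.32 to 12.5) with vehicle, and Igf1r one of 6.67 and 5.66. Their differences of 0.28 and 0.20 on the log2 scale were within 2 standard errors, 0.16 and 0.20. Igf1 had a median of 47.4 and 51.4. Igf2, a fetal growth factor, was near silent in most tumors (median 3.20 with insulin, 8.45 with vehicle) and very high in a few. It reached 4311 in Untreated_162 and 3475 in another vehicle tumor, against 1449 in insulin_21 and at most 17.0 in the other insulin tumors. With such a spread the log2 fold change of -2.15 had a standard error of 1.56. The 6 measured IGF binding proteins, which hold IGFs in the extracellular space, had 0 members nominally different: Igfbp2 (-0.40), Igfbp3 (-0.18), Igfbp5 (-0.56), Igfbp6 (-0.62) and Igfbp7 (-0.25) had negative and Igfbp4 (0.32) a positive log2 fold change, with limma p between 0.259 and 0.602. The sign was turned without Untreated_161 for Igfbp2 and with array weights for Igfbp3 and Igfbp4.

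Downstream of the receptors few genes were nominally different. Among 16 receptor adaptors and their regulators, 3 were nominally higher and 0 lower. Gab2, a docking protein for PI3K, had a median of 5.56 with insulin and 4.06 with vehicle, and 5 insulin tumors were above every vehicle tumor (log2 fold change 0.39, standard error 0.13, adjusted p = 0.306). Cbl, a ubiquitin ligase for activated receptors, had a log2 fold change of 0.82, and Ptpn1, the phosphatase that removes phosphate from the insulin receptor, one of 0.22. Grb10, an adaptor that inhibits the insulin receptor, had values up to 212 in insulin tumors and 168 in vehicle tumors around medians of 42.9 and 36.2 (log2 fold change 0.87, standard error 0.48, p = 0.0775, adjusted p = 0.498). Of 25 genes of PI3K, AKT and mTOR, 3 were nominally higher and 2 lower. The higher ones were Tsc2 (0.33), a brake on mTOR, Mtor itself (0.37) and Pik3cd (0.59), the PI3K subunit of leukocytes. The lower ones were Akt1s1 (-0.36), an inhibitor within mTOR complex 1, and Gsk3a (-0.21). The count of higher members was 6 without insulin_13 and 5 without Untreated_161, Untreated_182, Untreated_187 or Untreated_189. In Tsc2 all 10 insulin tumors were above the vehicle median of 10.4, with a range of 10.4 to 18.4 against 7.35 to 13.4. Of 19 FOXO factors and FOXO targets, 1 was nominally higher: Sesn1, a stress-induced inhibitor of mTOR complex 1 that p53 also induces, with medians of 14.4 and 11.0 (log2 fold change 0.59, standard error 0.25, adjusted p = 0.382). Sesn3 (0.67, p = 0.0563) and Foxo3 (0.35, p = 0.0620) were on the same side without reaching the nominal level. The 10 RAS and ERK kinases had 0 members nominally different, with the smallest p for Hras (-0.32, p = 0.0527). Of 15 genes that ERK induces as its own feedback, 1 was nominally lower (Etv4, -0.45), and of 25 immediate early genes Nr4a3 was nominally higher (0.50) and Myc lower (-0.31). Without insulin_13 the p of Etv4 was 0.0728, that of Nr4a3 0.0893 and that of Myc 0.0566. Myc ranged from 32.3 to 51.1 with insulin and from 40.3 to 126 with vehicle, the highest being Untreated_161. The tumors were taken 24 h after the last injection, which is long after the first wave of such genes has passed.

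Inhibitors of differentiation and other genes that BMP signalling induces were among the lower genes. BMPs signal through SMAD proteins to the Id genes, whose products block transcription factors of the helix-loop-helix class, and Smad6 and Smad7 feed back on the pathway. Id3 (chromosome 4 from 136143497 to 136145755) had a lowest, median and highest value of 43.0, 89.7 and 119 in insulin tumors and of 93.0, 157.6 and 351 in vehicle tumors. All insulin tumors lay below the vehicle median, and 8 of 10 vehicle tumors lay above every insulin tumor. The log2 fold change was -1.06 (standard error 0.27, adjusted p = 0.196) and, without insulin_13, -1.12 (adjusted p = 0.0959, the lowest over all alternatives, with a highest of 0.421). Id1 had medians of 17.6 and 26.4 (log2 fold change -0.83, standard error 0.28, adjusted p = 0.304). Smad6 had medians of 6.51 and 12.7, and stayed between 4.51 and 6.98 in the insulin tumors while it varied from 3.00 to 32.5 in the vehicle tumors. Hes1, a Notch target, had medians of 39.2 and 52.7. In all, 5 of the 19 genes on this list were nominally lower (the fifth was Bmp6) and 0 higher. Id2 (0.33) and Id4 (0.02) had positive log2 fold changes. The list median of -0.11 moved with single tumors, from -0.28 without Untreated_182 to 0.00 without insulin_15, and was -0.25 without insulin_13.

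Interferon-stimulated genes were lower with insulin over most of a list of 22. These genes are induced by transcription factors that bind the interferon-stimulated response element (ISRE) near the start site, and many of their products act against viruses. The 150 bases before the RefSeq start site (GRCm38.p6) are shown for the 4 members with the smallest limma p whose promoter matched the core of this element, GAAANNGAA or its reverse complement TTCNNTTTC, to show where such matches lie. They are written 5′ to 3′ along the gene, with each match in capitals, and overlapping matches run together. Bst2 lies at chr8:71537473-71537622 (minus strand), Isg15 at chr4:156200819-156200968 (minus strand), Ifit1 at chr19:34640739-34640888 (plus strand) and Rsad2 at chr12:26456453-26456602 (minus strand).
Bst2: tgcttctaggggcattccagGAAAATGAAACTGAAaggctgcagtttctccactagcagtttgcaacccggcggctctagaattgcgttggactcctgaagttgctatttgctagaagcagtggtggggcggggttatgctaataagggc
Isg15: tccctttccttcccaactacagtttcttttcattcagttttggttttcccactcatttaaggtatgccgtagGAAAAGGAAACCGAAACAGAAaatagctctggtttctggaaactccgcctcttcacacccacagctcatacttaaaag
Ifit1: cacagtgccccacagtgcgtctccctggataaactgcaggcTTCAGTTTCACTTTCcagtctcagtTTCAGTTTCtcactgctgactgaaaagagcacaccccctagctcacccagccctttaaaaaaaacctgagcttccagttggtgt
Rsad2: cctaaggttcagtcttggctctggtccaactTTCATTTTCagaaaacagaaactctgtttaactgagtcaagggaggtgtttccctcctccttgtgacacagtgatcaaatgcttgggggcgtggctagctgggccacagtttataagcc
Of the 22 genes, 17 had a promoter sequence in the RefSeq table, and 11 of them (64.7%) held a match within 250 bases before a start site, where 2211 of all 27025 genes with a promoter in the table (8.18%) did. Of the 10 nominally lower members with a promoter in the table, 6 held a match, and Oasl2 is one that did not. A match is a run of letters and not a measured binding site.

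All 22 interferon-stimulated genes had a negative log2 fold change, with a median of -1.07, and 13 were nominally lower. Usp18, a protease that removes ISG15 from proteins and dampens the interferon receptor, had the smallest p. It had a lowest, median and highest value of 1.43, 2.65 and 12.9 in insulin tumors and of 2.44, 11.5 and 41.2 in vehicle tumors. Thus 5 insulin tumors were below every vehicle tumor and 5 vehicle tumors above every insulin tumor, and the rest overlapped (log2 fold change -1.69, standard error 0.55, adjusted p = 0.301). Bst2, or tetherin, which holds budding virus at the cell surface, had values of 26.2, 45.4 and 134 with insulin and 37.4, 131 and 514 with vehicle (log2 fold change -1.35, standard error 0.46). For Isg15, the ubiquitin-like protein of this response, these were 8.74, 13.5 and 67.4 against 14.9, 61.9 and 211 (log2 fold change -1.53, standard error 0.55). The same side was seen for Mx2 (-1.25) and Oasl2 (-1.31), antiviral effectors, and for Ifit1 (-1.49) and Rsad2 (-1.18). The group was not uniform within a treatment. Averaged over the list on the log2 scale, the level ran from 2.20 to 4.79 in insulin tumors and from 2.97 to 6.26 in vehicle tumors, with insulin_15, insulin_8 and insulin_9 standing above the other insulin tumors and Untreated_186, Untreated_162 and Untreated_182 above the other vehicle tumors. The count of nominally lower members was 8 without Untreated_186, whose levels were the highest, and 10, with a median of -0.95, without insulin_13. The list's adjusted p-values were 0.301 and above. Isg15, Ifit1 and Rsad2 were chosen for their promoters after their values were seen.

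**Figure D2:**
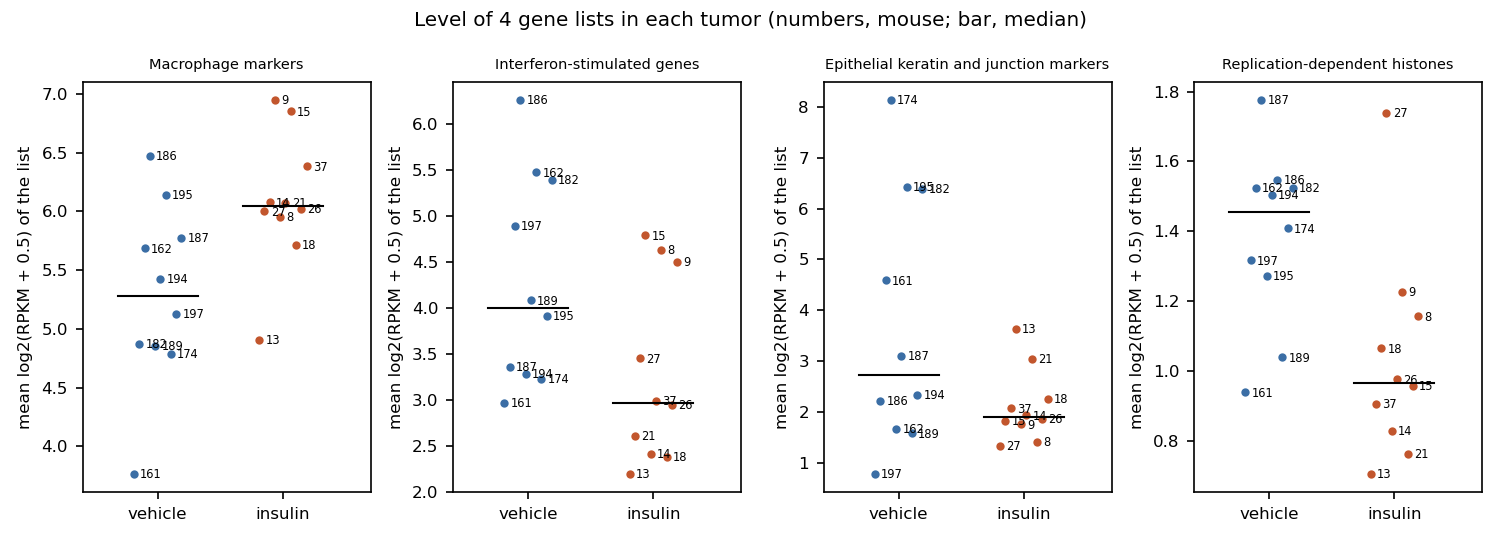
Mean log2(RPKM + 0.5) over the members of 4 gene lists (vertical axis, one panel per list) in each of 10 vehicle (blue) and 10 insulin (orange) tumors, with the mouse number beside each point and the median as a bar. The insulin median is the higher for macrophage markers and the lower for the other lists, with overlap in every panel, and for epithelial markers Untreated_174, Untreated_195, Untreated_182 and Untreated_161 lie above all insulin tumors.

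Markers of macrophages were higher with insulin. In RNA of a whole tumor, more cells of a type and more of its RNA per cell cannot be told apart. Of 14 macrophage markers, 11 were nominally higher and 0 lower, and their log2 fold changes had a median of 0.72. F13a1, a coagulation factor subunit made by macrophages and one of the 12 leading genes, had a lowest, median and highest value of 9.29, 31.8 and 87.7 in insulin tumors and of 2.87, 9.57 and 42.0 in vehicle tumors. Insulin tumors were above every vehicle tumor in 4 cases and vehicle tumors below every insulin tumor in 5 (log2 fold change 1.76, standard error 0.42, adjusted p = 0.196). Mrc1, the mannose receptor, had values of 31.9, 78.6 and 162.2 against 4.60, 34.8 and 77.3 (log2 fold change 1.47, standard error 0.39, adjusted p = 0.198). Mertk, a receptor for the uptake of dying cells, and Msr1, a scavenger receptor, had log2 fold changes of 0.67 and 0.76. The complement genes C1qa, C1qb and C1qc had log2 fold changes between 0.79 and 0.92, and Cd68, a marker shared by most macrophages, had one of 0.12 (p = 0.682). The summed RPKM of the list was between 1076 and 5907 with a median of 3062 in insulin tumors and between 786 and 4702 with a median of 1862 in vehicle tumors. The lowest insulin tumor was insulin_13, and Untreated_161 was the lowest vehicle tumor. The number of nominally higher markers remained 11 without insulin_13, when the median was 0.85. It was 6 without insulin_15 or without Untreated_161 and 7 without insulin_9 or without Untreated_189.

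Few of the other immune markers were nominally different. Of 17 T and NK cell markers 16 had a positive log2 fold change (median 0.47), and Klrb1c, a receptor of NK cells, was the single one nominally higher (0.85, with medians of 3.45 and 1.38). Genes of MHC class II and dendritic cells had 0 of 11 nominally different members with a median of 0.48. Without insulin_13, in which the class II transactivator Ciita had an RPKM of 0.495, 2 of the 11 were nominally higher and the median was 0.80. Of 8 neutrophil markers 0 were nominally different, with a median of -0.74. Without Untreated_197 4 of the 8 were nominally lower, and 2 were without Untreated_186 or with library size in the fit. S100a8, a calcium-binding protein of neutrophils and of stressed epithelium, was between 2.93 and 94.6 with insulin and between 8.09 and 1013 with vehicle. For S100a8 5 vehicle tumors were above every insulin tumor, Untreated_174 most of all (log2 fold change -1.53, standard error 0.80, p = 0.0606). The 7 B and plasma cell markers and the 5 mast cell markers held 0 nominally different members.

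**Figure D3:**
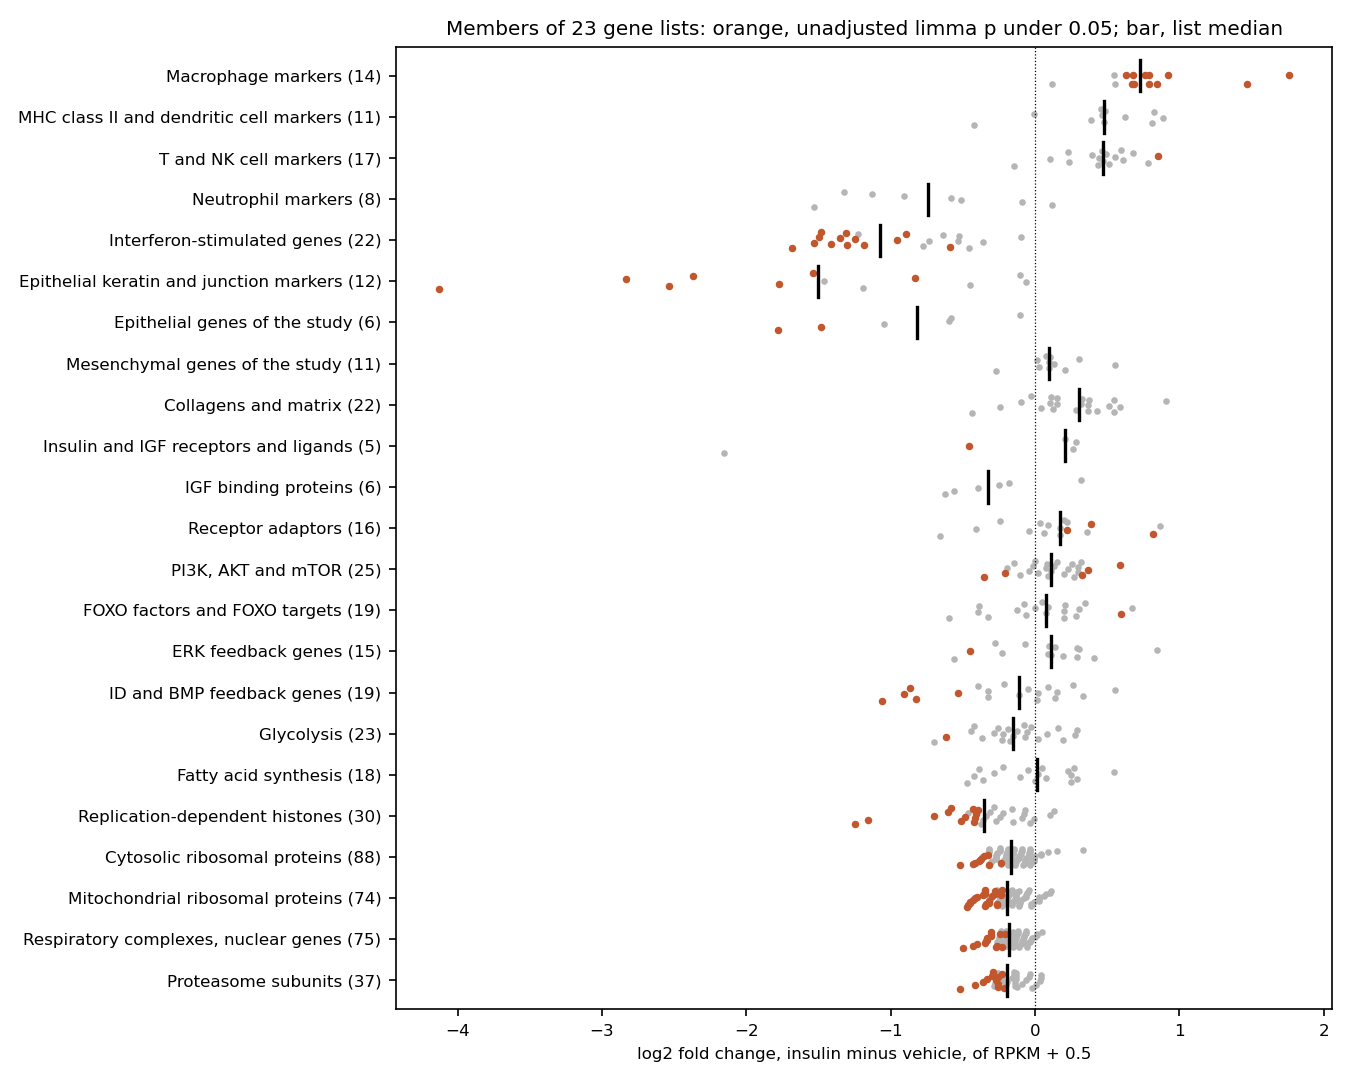
Log2 fold change of insulin minus vehicle (horizontal axis, on RPKM + 0.5) of each tested member of 23 gene lists, with the number of members in brackets; orange points had an unadjusted limma p under 0.05 and the black bar is the list median. All 22 interferon-stimulated genes and all 12 epithelial markers lie left of 0, and all 14 macrophage markers lie right of it.

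Epithelial markers were lower in insulin tumors, and this difference was carried by a few vehicle tumors. Of 12 keratin and junction markers, 7 were nominally lower, 0 were higher and the median log2 fold change was -1.50. Krt7, a keratin of simple epithelium, had a lowest, median and highest value of 0.841, 3.50 and 26.5 in insulin tumors and of 2.93, 46.1 and 3810 in vehicle tumors. In 5 vehicle tumors it was above every insulin tumor, and the other 5 overlapped the insulin values. Its log2 fold change was -4.13 (standard error 1.11, adjusted p = 0.202). Krt19 (-2.83) and the tight junction genes Cldn4 (-2.54) and Cldn7 (-2.37) were nominally lower as well. The commonest markers of luminal epithelium, Krt8 (-0.06), Krt18 (-0.45) and Cdh1 (-0.10), differed by less than 1 standard error. The summed RPKM of the list ran from 78.2 to 579.8 in insulin tumors and from 25.9 to 8984 in vehicle tumors, with the highest value in Untreated_174, so the vehicle group held both the highest and the lowest sums. Without Untreated_174, 5 of the 12 were nominally lower with a median of -0.98, and without insulin_13 the median was -1.81. Of the epithelial and mesenchymal genes that the authors followed, 2 of 6 epithelial genes (Serpinb5 and Elf3) and 0 of 11 mesenchymal genes were nominally different. In insulin_13 Elf3 had an RPKM of 8.51, where the next insulin tumor had 0.405, and the median of the 6 genes was -0.82 with this tumor and -1.16 without it. Vehicle tumors also reached higher values for Krt14 (basal keratin, up to 2164 against 32.4), Aldh1a3 (a luminal progenitor enzyme, 56.3 against 4.82), Muc1 (249 against 1.96) and Erbb2 (34.1 against 11.8). Of the lists of luminal genes (12 tested), basal genes (9), milk proteins (13) and ERBB receptors and ligands (11), each had 1 nominally lower and 0 nominally higher member. Without insulin_13 the lower members were 3 for luminal genes and 2 each for milk proteins and for ERBB receptors and ligands, and 1 ERBB gene was nominally higher.

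In lists of ribosomal proteins, respiratory complexes and the proteasome, the nominally different members were all lower with insulin, by small amounts. Of 74 mitochondrial ribosomal proteins 24 were nominally lower (median log2 fold change -0.20). Further, 15 of 75 nuclear genes of the respiratory complexes (median -0.18), 12 of 37 proteasome subunits (-0.19) and 10 of 88 cytosolic ribosomal proteins (-0.17) were nominally lower, and 0 members of any of these lists were nominally higher. Mrpl19, of the large mitochondrial subunit, ranged from 23.5 to 40.3 with insulin and from 29.1 to 59.3 with vehicle, and 6 insulin tumors were below every vehicle tumor (log2 fold change -0.46, standard error 0.13, adjusted p = 0.244). Psmb3, of the proteasome core, ranged from 112.6 to 179 and from 149.8 to 294 (log2 fold change -0.52, standard error 0.15, adjusted p = 0.232). Similar values were seen for Mrps35 (-0.47), Rpl31 (-0.43), Rpl38 (-0.52) and Ndufv1, the NADH-binding subunit of complex I (-0.35). Ribosomal protein genes have many near-identical processed pseudogenes, so the level of a single one is uncertain. The counts depended on the scaling and on single tumors. With quantile scaling the proteasome count was 7 and the respiratory count 9. Without Untreated_195 the proteasome count was 6, the respiratory count 5 and the cytosolic ribosomal count 6, and without insulin_13 the proteasome count was 6. Without Untreated_197 the respiratory count was 5, without Untreated_194 it was 23, and without insulin_8 or insulin_21 it was 9. For the proteasome it was 7 without insulin_21, and for the cytosolic ribosome 19 without Untreated_189. Mitochondrial ribosomal proteins kept between 18 and 25. The 13 genes of the mitochondrial genome itself had 0 nominally different members and a median of 0.01, and so had the 18 aminoacyl-tRNA synthetases.

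These lists consist of genes with short transcripts, and gene length moved with the difference over all genes. The median merged exon length in GENCODE M21 was 1736 bases for the cytosolic and 2255 for the mitochondrial ribosomal proteins, 1756 for the respiratory genes and 2820 for the proteasome, against 3675 for all tested genes. For the 25 genes of PI3K, AKT and mTOR it was 7721. The genes were divided by length into 4 classes of like size. In the class of the longest (6122 bases and more, 4137 genes) 465 were nominally higher and 99 lower (median log2 fold change 0.12). In the class of the shortest (11 to 1768 bases, 4138 genes), which holds the median length of the cytosolic ribosomal and respiratory lists, 138 were nominally higher (3.33%) and 222 lower (5.36%), and the median was -0.01. In the second class (1769 to 3675 bases, 4141 genes) 154 were nominally higher and 341 lower, and the median was -0.03. Per tumor, the median deviation of the longest class minus that of the shortest was between -0.14 and 0.27 in insulin tumors and between -0.62 and 0.16 in vehicle tumors, on the log2 scale. Untreated_174 stood apart at -0.62. Without it the longest class held 281 nominally higher and 96 lower genes, and the second class 122 and 256. In the shortest class 3.19% were then nominally higher and 3.62% lower, with a median of 0.00. The part of gene length in the differences of these lists was not tested.

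**Figure D4:**
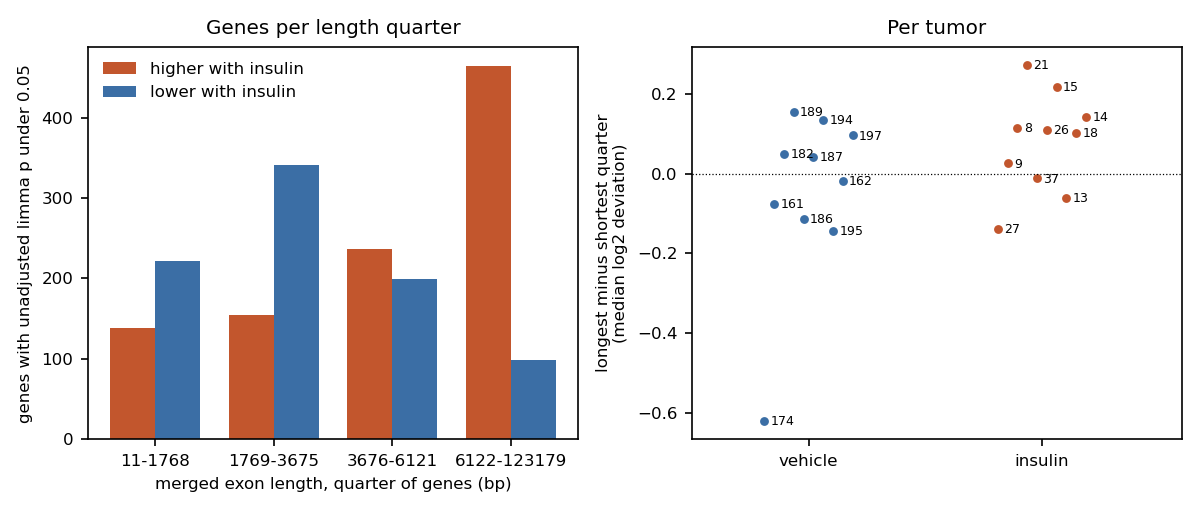
Left, number of genes with an unadjusted limma p under 0.05 (vertical axis, from 0) that were higher (orange) or lower (blue) with insulin in each of 4 classes of merged exon length (horizontal axis, bp): 465 were higher and 99 lower in the longest class. Right, difference between the median log2 deviations of the longest and shortest class in each tumor, with mouse numbers; Untreated_174 lies at -0.62 and the other vehicle tumors between -0.14 and 0.16.

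In the metabolic pathways that insulin is known for in liver and fat, few genes were nominally different. The 18 genes of fatty acid synthesis had 0 nominally different members and a median of 0.01, and the smallest p-values were those of Agpat2 (-0.36, p = 0.0594) and of Elovl6, which lengthens fatty acids (0.55, p = 0.0657). Of 20 genes of cholesterol synthesis and uptake Dhcr7, the last enzyme of the pathway, was nominally higher (0.42) and Fdft1 lower (-0.43). Fdft1 was no longer nominally lower with array weights or with limma voom. The same held when any single one of most of the tumors was left out, insulin_13 among them. Of 23 genes of glycolysis, 17 had a negative log2 fold change (median -0.15) and 1 was nominally lower. This was Gapdh, with a lowest, median and highest value of 368, 489 and 596 in insulin tumors and of 360, 592 and 1747 in vehicle tumors (log2 fold change -0.62, standard error 0.24, adjusted p = 0.346). For Gapdh 5 vehicle tumors were above every insulin tumor, and pseudogenes make its level uncertain. Of 22 genes of the TCA cycle, 2 (Suclg1, -0.39, and Mdh2, -0.28) were nominally lower and 20 had a negative log2 fold change. The 16 hypoxia targets had 0 nominally different members.

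Few proliferation genes were nominally different. Of 24 genes of G2 and M phase, Mki67, which marks cycling cells, was nominally higher (medians 20.1 and 15.6, log2 fold change 0.42, p = 0.0465, not nominal with 10 of the 20 tumors left out singly, with array weights or with library size in the fit) and Birc5, or survivin, nominally lower (18.5 and 24.8, -0.43, p = 0.0497, and p = 0.0979 without insulin_13). The list median was 0.01, and a single member in each direction is below the background share. Of 26 S phase genes, 2 were nominally lower (Rfc4, -0.41, and Cdt1, -0.28), 21 had a negative log2 fold change and the median was -0.14. Trp53, which carries the mutation in these mice, had a median of 46.4 with insulin and 42.5 with vehicle (p = 0.182). Of 19 genes of p53 and its targets, Phlda3, an inhibitor of AKT, was the one nominally different, with 44.0, 56.4 and 81.5 as the lowest, median and highest value with insulin and 49.4, 96.7 and 149.5 with vehicle (log2 fold change -0.68, standard error 0.20, adjusted p = 0.264). Among 21 genes of the unfolded protein response and ATF4, 4 were nominally lower, including Trib3 (-0.92), a pseudokinase that binds AKT, and Ddit3 (-0.69), the stress factor CHOP, and Phgdh was higher (0.57). Of 18 clock genes Nr1d1, the nuclear receptor REV-ERB alpha, was nominally lower (medians 18.5 and 25.5, -0.65) together with Bhlhe40 (-0.52), while the hour of the day at which tumors were taken is not given in the sources used here.

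Lists of stroma and of neighboring tissues held few nominally different members. The lists of collagens and matrix (22 tested, median 0.30), of endothelium (12, median 0.14) and of nerve (7, median 0.09) held 0 nominally different members. In lists of TGF-beta genes, of matrix metalloproteinases and TIMPs, of adipocytes and of imprinted growth genes, 1 member each was nominally lower (Tgfb2, -0.84; Timp1, -0.60; Cidea, -0.79; Phlda2, -1.36), with list medians of 0.09, -0.19, -0.36 and 0.12, and of 8 pericyte markers Abcc9 was nominally higher (0.59). Of 2 keratinocyte genes above the filter Krt10 was nominally lower (-0.36). Muscle markers were very uneven, with a summed RPKM from 15.0 to 3139 in insulin tumors and from 11.0 to 4752 in vehicle tumors, and their median log2 fold change of 0.41 was -0.03 without insulin_13.

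To ask whether insulin differed from the other ligands, the insulin tumors were compared with the 10 tumors of each other treatment in the same fit. Against glargine 0 genes (0%) had an adjusted p under 0.05, with 663 at an unadjusted p under 0.05. Against X10 there were 17 (0.102%), of which 13 were higher with insulin, and 11 of the 17 have the symbol of a predicted gene. With the genes annotated as pseudogenes left out, 2 genes had an adjusted p under 0.05, and without insulin_13 the count was 47. Rpl30, of the large ribosomal subunit, had an RPKM of 244 ± 33.7 with insulin and 389 ± 62.1 with X10 (SD, n = 10 each; log2 fold change -0.66, standard error 0.12, adjusted p = 0.00918). Vehicle tumors lay between them at 309 ± 63.7. Crtc1, a coactivator of CREB, had 29.8 ± 4.04 with insulin, 17.6 ± 2.91 with X10 (0.75, adjusted p = 0.0149) and 23.4 ± 6.57 with vehicle. The other genes called against X10, with predicted genes and Rik clone names passed over, were lower with insulin: Atp5c1, a subunit of ATP synthase, had 135.99 ± 9.50 against 188 ± 33.6 with X10 (-0.45, adjusted p = 0.0419), Eif3m, a translation initiation factor, 64.6 ± 6.50 against 87.8 ± 15.2 (-0.43, adjusted p = 0.0419), and Mob4 36.3 ± 3.14 against 50.6 ± 6.87 (-0.47, adjusted p = 0.0335). Of 31 alternatives, the call was lost in 13 for Atp5c1, 14 for Eif3m and 5 for Mob4, and in 0 for Rpl30 and Crtc1. For Atp5c1 and Eif3m these include leaving out any insulin tumor other than insulin_13, and for Mob4 leaving out insulin_9, insulin_14 or insulin_27. All 3 were lost with pseudogenes left out and with library size in the fit. Against IGF1 1 gene (0.00598%) passed: Exosc4, a core subunit of the RNA exosome, had 20.0 ± 2.00 with insulin, 29.8 ± 5.92 with IGF1 and 25.0 ± 4.39 with vehicle (log2 fold change insulin minus IGF1 -0.55, standard error 0.10, adjusted p = 0.0491). This call was lost under 7 other settings of the processing and without insulin_8, insulin_9, insulin_14, insulin_15, insulin_18, insulin_21, insulin_26 or insulin_37, or without Untreated_162, Untreated_182 or Untreated_195. For these 6 genes the means with insulin and with the second ligand lay on opposite sides of the vehicle mean. The genes were picked for a large difference between those treatments, which favors such a placing, so it is not a separate result. At an unadjusted p under 0.05, 3.96% of all genes differed between insulin and glargine, 11.3% between insulin and X10 and 7.3% between insulin and IGF1. At this level 0 of the 14 macrophage markers and 0 of the 22 interferon-stimulated genes differed between insulin and any other ligand, which does not show that the ligands acted alike. Of the 12 epithelial markers, 2 were lower with insulin than with glargine, 2 were lower than with X10 and 0 differed from IGF1. Against IGF1, where 3.81% of all genes were nominally lower with insulin, the members lower with insulin were 10 of 30 histones, 27 of 88 cytosolic and 22 of 74 mitochondrial ribosomal proteins, 22 of 75 respiratory genes and 11 of 37 proteasome subunits, and 0 members of these lists were higher. Against glargine (2.1% of all genes lower) the lower members were 3, 1, 9, 18 and 0 in the same order, and against X10 (3.02% lower) 2, 10, 4, 13 and 7. Of these lists and those of macrophage, interferon and epithelial genes, 2 members had an adjusted p under 0.05 between insulin and another ligand, both against X10: Rpl30 and Atp5c1. All 4 treatments are measured against the same vehicle tumors, so only each one's own values can be set side by side. The median log2 fold change of the interferon-stimulated genes against vehicle was -1.07 with insulin, -0.86 with glargine, -0.98 with X10 and -0.64 with IGF1. For macrophage markers it was 0.72, 0.48, 0.41 and 0.79, and for epithelial markers -1.50, -0.40, -0.51 and -2.22, in the same order. The histone list had -0.35, -0.16, -0.35 and -0.03.

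Insulin_13 was unlike the other 19 tumors in the genes of salivary gland. Bpifa2, a secreted protein of the parotid gland, had an RPKM of 84726 in this tumor. Among the vehicle tumors its highest value was 0.268. Amylase (Amy1) had 16196 against at most 1.23 in vehicle tumors, and Smr3a, a salivary peptide precursor, 16577 against at most 0.241. The 12 salivary gland markers above the filter made up 16.8% of the summed RPKM of insulin_13 and at most 0.0981% of any other of the 20 tumors. RPKM is relative to the reads of the library, so reads taken by these genes lower the values of all others in insulin_13. Insulin 14 was the second highest of the 20 tumors for most of these genes: Bpifa2 had 428 and Amy1 73.5 there. Of 30 genes more than 4 log2 units above all the other 19 tumors in insulin_13, 25 were second highest in insulin_14, and for 19 of them insulin_14 was second among all 50 tumors. Over the 20 of these genes with an RPKM above 100 in insulin_13, the ratio of insulin_13 to insulin_14 had a median of 193.9, with a range of 28.6 to 284. The labels number these libraries 3 and 4 of the series. Most of the 12 markers passed the level filter through this tumor, so no count of them over the groups is given.

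**Figure D5:**
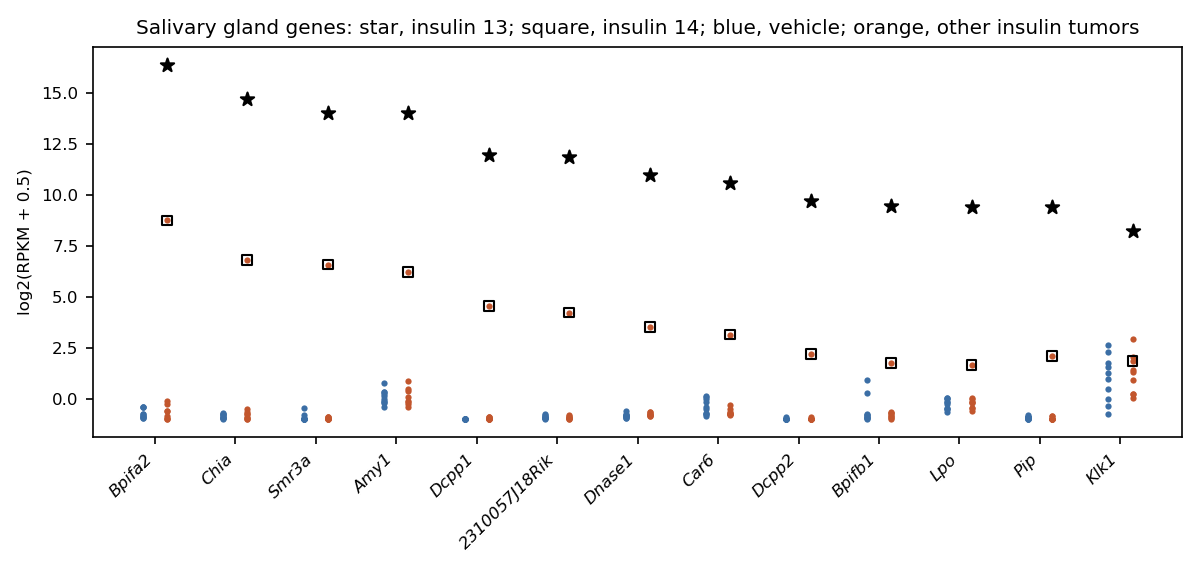
Log2(RPKM + 0.5) of 13 genes (horizontal axis) in 10 vehicle tumors (blue) and 10 insulin tumors (orange); the star is insulin_13 and the open square insulin_14. The star lies far above all other tumors for each gene, from Bpifa2 (RPKM 84726) on the left, and the square is second for all but Klk1.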

How the data were processed

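Poly-A RNA of 50 tumors was sequenced on the Ion Proton, and per the submitters' processing notes reads were placed on GRCm38 by TopHat2 2.0.10 and Bowtie2 and counted by HTSeq 0.6.1. The authors deposited one table of RPKM values for 37701 genes. RPKM values are not counts, so the authors' DESeq2 1.2.10 analysis was not repeated. Values of a gene are whole multiples of a step, as reads had been scaled to 100 M per library. From these steps library size and, for 15396 of 16733 tested genes (92.0%), reads were recovered. Where several gene lengths fitted the steps alike, the shorter was taken. The reads of long genes may therefore be wrongly scaled, also in the voom fit made on them. At least 95.9% of low values per tumor came out whole (within 0.51 scaled reads). This share was taken largely on the values that had set the library size, so it is no separate check.

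Tested were genes whose RPKM averaged at least 0.5 over the 50 tumors, on log2(RPKM + 0.5), which understates the fold change of low genes, with limma 3.58.1 in R 4.3.3, 5 groups in the fit, an intensity trend and Benjamini-Hochberg adjustment. Tumors titled Untreated were taken as the vehicle group. Each tumor is from a separate mouse. The library size test, the lists and the figures used Python 3.11.15, numpy 2.4.6, scipy 1.17.1, pandas 2.3.3 and matplotlib 3.10.9. Coordinates and exon lengths are from GENCODE M21 (GRCm38; matched for 16551 tested genes), and promoters from RefSeq (GRCm38.p6). The exon lengths are those of this annotation and not the lengths the authors divided by.

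Named were the insulin and IGF receptors, ligands and binding proteins, up to 4 members with the smallest p in each of 51 gene lists, the 12 genes with the smallest p in each direction with a mean RPKM of at least 1, genes without overlap, genes with an adjusted p under 0.05, and the salivary markers with the 10 genes that set insulin 13 apart most. Symbols of predicted genes, Rik clone names and pseudogenes were passed over. Other genes named, such as further members of a list counted in the text, were chosen after their values were seen. The comparison, the gene lists and the rule were chosen with earlier results of these data known. A salivary marker was taken off its list and is not reported here. No p-value was adjusted over a list and no test was made of a list. Alternatives were pseudocounts of 0.1 and 1, other level filters, 2 groups in the fit, quantile and upper quartile scaling, no trend, array weights, pseudogenes left out and each of the 20 tumors left out; limma voom on recovered reads and library size as a covariate were added after seeing the data. The test was run on simulated data with known changes, where it missed part of them and made some false calls. Recovered depth limits low genes most, and counting error is not separated from the spread between tumors.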

Additional observations from a re-analysis of the deposited data

Results flagged for a closer look

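In 22 of 220 groups of 10 tumors examined (the genes chosen for description, in insulin and in vehicle tumors), the highest or lowest tumor stood apart from the other 9. The measure is the gap to the nearest tumor divided by the range of the group on the log2(RPKM + 0.5) scale, and it had to exceed the 95% critical value of Dixon's test. Chance alone sets about 1 in 20 groups apart by this measure. In 8 of the 22 the tumor was insulin_13, in 3 of them for salivary genes that were chosen because they set it apart and so add nothing to the count. It was the lowest insulin tumor for Peli2 (gap 0.609 of the range, RPKM 1.63) and Mertk (0.656, RPKM 3.22). It was the highest for Epha1 (0.527), the epithelial genes Cldn7 (0.593) and Elf3 (0.811), and the salivary genes Amy1 (0.540), Smr3a (0.495) and Dcpp1 (0.572). Untreated_161 was the lowest vehicle tumor for 4 genes that macrophages or other leukocytes express, Peli2 (0.478), Stab1 (0.475), Pik3cd (0.469) and Mertk (0.477), and the highest for Igfbp2 (0.524, RPKM 219) and Myc (0.637, RPKM 126). Untreated_174 was the highest for Hras (0.509, RPKM 111.5) and Muc1 (0.528, RPKM 249), Untreated_195 for Eif3m (0.497), Untreated_197 for the replication factor gene Rfc4 (0.481) and Untreated_182 for Smr3a (0.645, at an RPKM of only 0.241). Among insulin tumors, insulin_21 was the highest for Igf2 (0.603, RPKM 1449), insulin_15 for Sesn3 (0.493, RPKM 35.9) and insulin_18 for Cdt1 (0.618, RPKM 17.7).

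The effect of insulin differed from that of another ligand in 6 of the genes described, by the limma test of the difference itself: Rpl30 (insulin minus X10, -0.66 on the log2 scale), Crtc1 (insulin minus X10, 0.75), Atp5c1, Eif3m and Mob4 (insulin minus X10, -0.45, -0.43 and -0.47) and Exosc4 (insulin minus IGF1, -0.55). All but Rpl30 and Crtc1 were lost under several alternatives. The shared vehicle values cancel in these log2 differences. The vehicle tumors still enter the spread that the test uses, so the calls are not free of them.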

How the results depend on the processing

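The count of genes with an adjusted p under 0.05 between insulin and vehicle (limma, Benjamini-Hochberg; 0 as reported) was 2 when the level filter was raised to an RPKM of 5, when samples were scaled by quantiles or by the upper quartile and when library size entered the fit, and 1 with array weights. It lay between 0 and 3 with 1 tumor left out, the highest without Untreated_194. These calls were Hist1h2ap, Hist1h2ao and Med21. At an unadjusted p under 0.05, 2832 genes were counted when all genes with a nonzero value were tested, more genes than in the reported test, and 1402 (without Untreated_174) to 2281 (without Untreated_189) with 1 tumor left out. Between insulin and X10 the count (17 as reported) was 8 with all genes with a nonzero value, 1211 with array weights, 2 with pseudogenes left out and 6 with library size in the fit. It was 5 (without insulin_9) to 47 (without insulin_13) with 1 tumor left out. Between insulin and IGF1 (1 as reported) it was 0 with a pseudocount of 0.1, with all genes above zero tested, with either other scaling, without the trend, with limma voom on recovered reads and with library size in the fit, and 0 to 1 with 1 tumor left out. The cause of these shifts was not tested.

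The sign turned for Igfbp3 (0.0194 with array weights), Igfbp4 (-0.0538 with array weights) and Igfbp2, which ran from -0.63 (without Untreated_174) to 0.0262 (without Untreated_161) with 1 tumor left out. For insulin against vehicle, the other log2 fold changes of the genes described kept their direction and side of the threshold in each alternative that tested them, except that Hist1h2ap, Hist1h2ao and Med21 passed it in some. No paired analysis was possible because the 2 groups share no mouse number. Voom and the covariate were chosen after seeing the data. Depth limits genes near the filter most.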
